A study of Mus musculus with 8 samples.

Results

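The genes described here build or mark motile cilia: the cilia- and flagella-associated proteins (Cfap), the axonemal dynein heavy chains (Dnah), the radial spoke proteins (Rsph), the tektins (Tekt), and Foxj1, Ccdc153, Tmem212, Sntn, Rarres2 and Zbbx, which mark ependymal and other multiciliated cells. They were chosen by name from the mRNA probes of the arrays. The rule itself uses no measured value, but it was set with earlier results of these data known. They came to 61 of the 20481 mRNA genes with probes, on 138 of 47074 mRNA probes. RNA was measured in spinal cord of female mice aged 8 weeks, on 4 arrays of cord after contusion injury (a blunt impact that leaves the dura in place) and 4 arrays of control cord. Each sample came from 1 mouse and was a length of cord from T9 to T10 that enclosed the lesion, so it held every cell type of the cord. The labels differ on the time after contusion, which the titles give as 3 days and the descriptions of replicates 1, 2, 3 and 4 as 3, 4, 5 and 6 days. They also differ on the controls, which are sham-operated mice in the design text and normal cord in the descriptions. No strain or genotype is named. The p-values measure the spread between these 8 mice, which within a group also holds any effect of the array slide and of the described day.

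A motile cilium beats because dynein motors slide its outer microtubule doublets against each other, under the control of radial spokes and a central pair of microtubules. In the spinal cord such cilia stand on the ependymal cells, which line the central canal and move cerebrospinal fluid. Foxj1, together with RFX factors, switches on most genes of the ciliary shaft, the axoneme. Several Cfap, Dnah and tektin genes are better known from the sperm tail than from the brain, and some ciliary genes are also used by the primary cilia of neurons and glia.

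Levels are log2 intensities relative to the 75th percentile of each array, so a difference of 1 is a doubling, and differences are contusion minus control. Signal was well above background for 72.9% to 75.4% of probes, depending on the array, none was saturated, and arrays of 1 group correlated at 0.988 to 0.992. The median standard error of a difference was 0.0944 over mRNA genes, and the number of arrays, 4 per group, limits this precision. Of the 61 genes, 58 had a probe bright enough to test, that is, clear of background on 4 or more of the 8 arrays, and 56 of them were so on all 8. Cfap61, Cfap97d1 and Tekt3 had none and were not tested. A gene is said to have risen or fallen where limma's adjusted p over all features was under 0.05. In these bulk samples fewer cells of a type and less RNA per cell cannot be told apart.

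The motile cilia genes did not move as a block after contusion. Of the 58 tested, 24 fell (41.4%, against 25.4% of all 18203 mRNA genes) and 6 rose (10.3%, against 25.8%), while Foxj1 itself did not pass the threshold. The share that changed in either direction was 51.7%, close to the 51.2% of all mRNA genes. The counts of mRNA genes by role or list given below, where no block or left-out sample is named, are to be read against these same shares of all mRNA genes. The median difference of the 58 was -0.17 (-0.09 with normexp background correction), against -0.00 over all mRNA genes. Most changes were small: 3 of the 30 reached 2-fold and 20 were under 1.5-fold. The 2 groups of arrays did not overlap for 25 of the 58, against 51.8% of all mRNA genes. The median level of the 58 genes lay between -0.57 and -0.35 on the contusion arrays, against -0.37 to -0.11 on the control arrays, so contusion replicate 2 lay just inside the control range. The median of all mRNA genes was 1.82 to 1.92 on the contusion arrays and 1.69 to 1.8 on the control arrays. The 58 genes were thus dimmer than most of the genes they are set beside.

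The arrays lay on 2 slides. Slide 1 held contusion replicate 1 with control replicates 2, 3 and 4, and slide 2 held contusion replicates 2, 3 and 4 with control replicate 1. Among the injured cords the slide also divides the days given in the descriptions, 3 days on slide 1 and 4 to 6 days on slide 2, and these cannot be told apart. All 30 genes that changed differed in the same direction within both slides, though Cfap54 by only -0.01 within slide 2. The 30 were chosen by their difference over these same arrays, so the shared direction is no independent check. With the slide as a block in the fit 13 genes fell, against 24 without it, and 6 rose in both fits. The median difference was -0.25 within slide 1 and -0.06 within slide 2, against -0.01 and 0.04 over all mRNA genes. Counts with that block, here and for the lists below, are given without the count over all mRNA genes. They therefore do not show whether the loss of calls is particular to these genes. Leaving out 1 sample at a time moved the number of the 58 genes that fell to between 15, without control replicate 3, and 23. The same refits moved their median difference to between -0.25, without contusion replicate 2, and -0.11, without contusion replicate 4. Over all mRNA genes those refits gave 3771 to 5053 that fell, against 4623 with all samples. Of the 30 changes, 16 held under all 17 alternative analyses: Tekt5, Ccdc153, Tmem212, Dnah2, Cfap65, Dnah7b, Cfap20dc, Cfap161, Dnah7a, Cfap97, Cfap410, Cfap69 and Cfap57 fell in each, and Dnah10, Rarres2 and Rsph3a rose in each. The last 3 of the 13 lie outside the rule for named genes and were named after their values were seen.

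**Figure D1:**
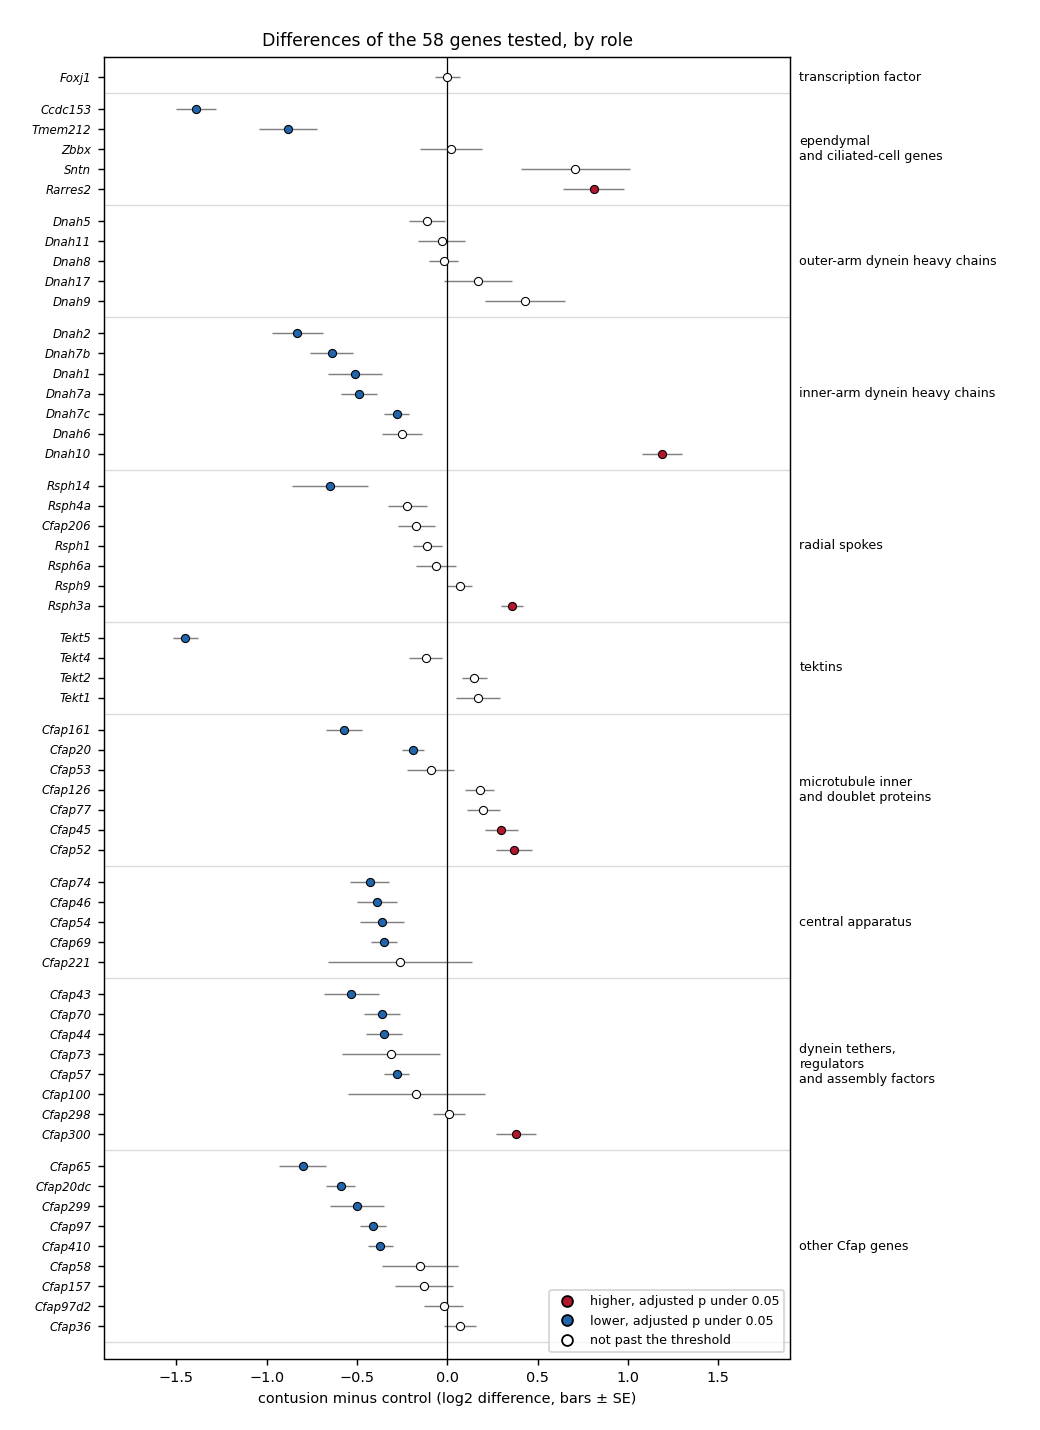
Difference of each of the 58 genes tested (horizontal axis, contusion minus control on the log2 scale, bars ± SE), grouped by role; blue points fell, red points rose and white points did not pass an adjusted p of 0.05. Inner-arm dyneins and central apparatus genes lie mostly left of 0, outer-arm dyneins around 0, and Tekt5 at -1.45 and Dnah10 at 1.19 are the outermost on either side.

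The promoters of 5 genes are printed because they stand for the range of responses. Ccdc153 and Tekt5 had the largest falls and Dnah10 the largest rise. Cfap20dc fell and Cfap298 did not pass the threshold, and both hold a paired X-box, the site that RFX factors bind. Each window runs from 250 bases before to 50 bases after the start of the gene, 5′ to 3′ on the strand of the gene, from RefSeq on GRCm38.p6. Capitals mark the RFX half-site GTTNCC, read on both strands (GGNAAC), and the X-box, here GTTNCC followed by GGNAAC with 0 to 3 bases between them.
Ccdc153 (chr9:44240427-44240726, plus strand): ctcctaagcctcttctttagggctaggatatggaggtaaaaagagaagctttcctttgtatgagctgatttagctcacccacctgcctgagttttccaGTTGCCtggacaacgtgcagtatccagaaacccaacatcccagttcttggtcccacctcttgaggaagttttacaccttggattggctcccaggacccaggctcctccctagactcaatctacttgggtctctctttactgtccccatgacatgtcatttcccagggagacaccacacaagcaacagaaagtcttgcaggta
Tekt5 (chr16:10395406-10395705, minus strand): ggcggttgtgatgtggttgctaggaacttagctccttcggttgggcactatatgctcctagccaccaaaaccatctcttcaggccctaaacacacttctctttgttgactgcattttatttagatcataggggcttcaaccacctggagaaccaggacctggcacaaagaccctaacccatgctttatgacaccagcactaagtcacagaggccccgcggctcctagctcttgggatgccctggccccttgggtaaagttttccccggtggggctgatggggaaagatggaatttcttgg
Cfap20dc (chr14:8666241-8666540, minus strand): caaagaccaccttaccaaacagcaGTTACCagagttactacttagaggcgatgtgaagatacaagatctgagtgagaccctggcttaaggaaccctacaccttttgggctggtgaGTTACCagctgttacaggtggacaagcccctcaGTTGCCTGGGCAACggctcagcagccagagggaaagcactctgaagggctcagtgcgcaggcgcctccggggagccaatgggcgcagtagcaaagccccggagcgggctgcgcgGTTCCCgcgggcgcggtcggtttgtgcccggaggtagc
Dnah10 (chr5:124724835-124725134, plus strand): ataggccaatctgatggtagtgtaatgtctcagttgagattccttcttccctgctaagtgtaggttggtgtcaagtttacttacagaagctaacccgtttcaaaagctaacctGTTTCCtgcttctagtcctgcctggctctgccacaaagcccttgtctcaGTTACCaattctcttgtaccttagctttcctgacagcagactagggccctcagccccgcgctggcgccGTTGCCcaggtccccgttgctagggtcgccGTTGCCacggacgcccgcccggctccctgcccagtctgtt
Cfap298 (chr16:90934800-90935099, minus strand): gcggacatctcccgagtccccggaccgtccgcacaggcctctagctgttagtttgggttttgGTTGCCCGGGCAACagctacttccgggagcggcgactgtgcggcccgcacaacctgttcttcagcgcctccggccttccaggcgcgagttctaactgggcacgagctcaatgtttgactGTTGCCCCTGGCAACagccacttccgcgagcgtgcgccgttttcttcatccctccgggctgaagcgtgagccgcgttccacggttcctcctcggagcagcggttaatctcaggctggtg
The window of Tekt5 holds no match, that of Ccdc153 holds 1 half-site, that of Dnah10 holds 4, and that of Cfap298 holds 2 X-boxes. Windows were at hand for 47 of the 58 genes tested, 54 in all. A half-site stood in 39 of the 54 (72.2%), against 45.3% of all 32851 promoter windows of the same length. An X-box stood in 3, those of Cfap20dc, Cfap298 and Zbbx (5.56%, against 0.804%), and the forkhead core TGTTTAC, also read as GTAAACA, in 4 (7.41%, against 3.65%). The half-site was in the window of 13 of 20 genes that fell, of all 5 that rose and of 18 of 22 that did not pass the threshold, so it was common in each class. A match is a string of letters and not a measured binding site, and a half-site inside an X-box counts for both.

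Foxj1, the transcription factor of motile cilia (NM_008240, chromosome 11), had levels of 4.07, 4.17, 4.25 and 4.07 after contusion, against 4.08, 4.21, 4.10 and 4.15 in control cord. The ranges of the groups overlapped, with the highest and the lowest values both after contusion, and the difference was 0.00 ± 0.07 (SE; limma adjusted p = 0.964). Of 15 other genes of the multiciliated-cell programme and of centriole amplification, 6 rose and 3 fell. Plk4, the kinase that starts centriole duplication, rose by 1.13 ± 0.08 (adjusted p = 0.000111), Rfx2 by 0.51 ± 0.11 (adjusted p = 0.00744) and E2f5 by 0.40 ± 0.10 (adjusted p = 0.0129). Ccp110, a cap of the centriole that restrains cilium growth, fell by 0.76 ± 0.10 (adjusted p = 0.000606). Deup1, the scaffold of the deuterosome on which multiciliated cells make centrioles, fell by 0.67 ± 0.14 (adjusted p = 0.0067), and Rfx3 by 0.21 ± 0.07 (adjusted p = 0.036; adjusted p = 0.0764 with the slide as a block). Centriole genes also serve dividing cells. All 6 markers of dividing cells rose, with a summed level (log2 of the summed linear values) of 6.42 to 7.04 after contusion, against 3.03 to 4.22 in control cord; their part in these values was not tested.

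Among the marker genes of ependymal cells, Ccdc153 and Tmem212 fell and Rarres2 rose. Ccdc153, a coiled-coil gene of ciliated cells (NM_001081369, chromosome 9), had levels of 0.15, 0.46, 0.14 and 0.18 after contusion, against 1.38, 1.79, 1.73 and 1.6 in control cord. The groups lay nearly 1 log2 unit apart, with contusion replicate 2 the highest of the injured cords, and the difference was -1.39 ± 0.11 (2.63-fold lower, adjusted p = 0.00014). Tmem212, a membrane protein gene of ependymal cells (NM_001164437, chromosome 3), had -0.53, 0.12, -0.58 and -0.44 after contusion, against 0.34, 0.71, 0.55 and 0.47 in control cord. Again contusion replicate 2 was nearest the controls, and the fall was 0.88 ± 0.16 (1.84-fold, adjusted p = 0.00335). Its other probe gave -0.96.

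Rarres2 encodes chemerin, a secreted chemoattractant for macrophages, and is abundant in ependymal cells as well as in fibroblasts. Its levels (NM_027852, chromosome 6) were 3.77, 4.07, 3.81 and 3.78 after contusion, against 3.01, 2.83, 3.53 and 2.80 in control cord. Every contusion value was above every control value, by 0.81 ± 0.17 on average (1.76-fold higher, adjusted p = 0.00539). Control replicate 3, the highest control for Rarres2, was also the highest control for each of the 8 fibroblast markers, of which 3 rose (2 with the slide as a block). The summed level of those markers was 7.98 to 8.35 after contusion, against 6.30 to 8.40 in control cord; their part in the Rarres2 value was not tested. Without control replicate 3 the difference was 0.98 (adjusted p = 0.000744).

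Sntn, the gene of sentan, a protein at the ciliary tip (NM_177624, chromosome 14), did not pass the threshold, and its values followed the slides. The levels were 0.52, 1.5, 1.56 and 1.39 after contusion, against 1.24, 0.24, 0.41 and 0.23 in control cord. The 4 arrays of slide 2 read 1.24 to 1.56 and the 4 of slide 1 read 0.23 to 0.52, whichever the group. The pooled difference was 0.71 ± 0.30 (adjusted p = 0.0936). Within slide 1 it was 0.23 and within slide 2 it was 0.24, and with the slide as a block it was 0.23 (adjusted p = 0.0634). Leaving out contusion replicate 1 gave 0.95 (adjusted p = 0.0214), and leaving out control replicate 1 also gave 0.95 (adjusted p = 0.0209). The outer-arm dynein Dnah9 showed the same split by slide on 1 of its 3 probes. Levels that did not overlap between slides were found for 5 of the 58 genes (8.62%), against 9.44% of all mRNA genes. They were Cfap299, Cfap77, Dnah1, Dnah9 and Sntn, of which Dnah1 and Cfap299 are counted among the genes that fell. Zbbx, a zinc finger gene of ciliated cells, was at -3.75 to -3.50 after contusion, against -4.05 to -3.27 in control cord (difference 0.02 ± 0.17, adjusted p = 0.944).

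**Figure D2:**
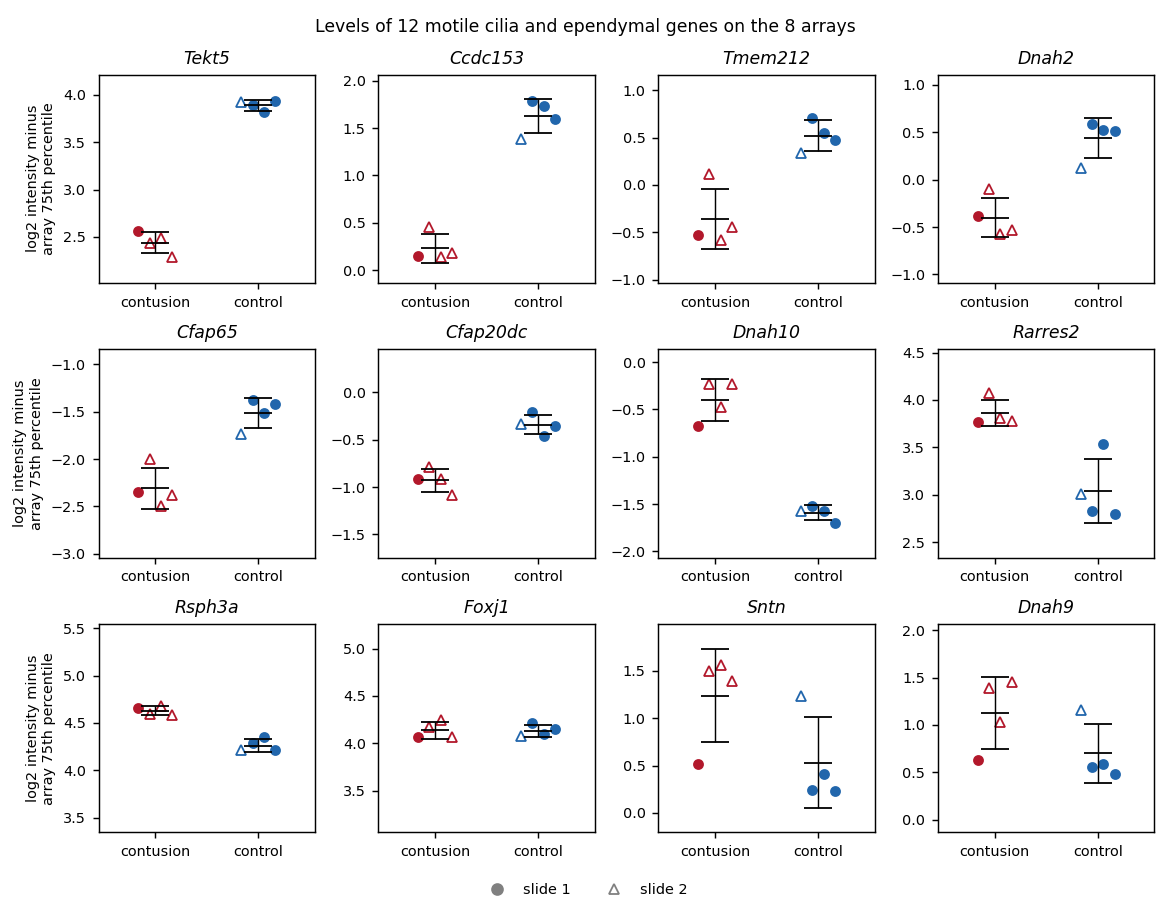
Levels of 12 of the genes on each array (log2 intensity minus the array's 75th percentile), with contusion on the left and control on the right of each panel, filled circles for slide 1 and open triangles for slide 2, and bars for the mean ± SD of 4 arrays. Tekt5, Ccdc153 and Dnah10 separate fully by group, Foxj1 overlaps, and Sntn and Dnah9 separate by slide.

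Dynein heavy chains are the motors of the axoneme. By limma, 0 of the 5 outer-arm chains tested (Dnah5, Dnah8, Dnah9, Dnah11 and Dnah17) passed the threshold, 0 also at an unadjusted p under 0.05, and their differences ran from -0.11 to 0.43. The highest of them was Dnah9, whose levels on the probe used were 0.63, 1.39, 1.03 and 1.45 after contusion, against 1.16, 0.55, 0.59 and 0.48 in control cord. Those values split by slide, not by group (0.09 within slide 1 and 0.14 within slide 2), and the other 2 probes of Dnah9 gave -0.28 and -0.22. The pooled difference of 0.43 ± 0.22 had an adjusted p of 0.152, which became 0.0422 without contusion replicate 1. Outer-arm and inner-arm chains were not tested against each other.

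Of 7 inner-arm chains, 5 fell, 1 rose and Dnah6 did not pass the threshold. Dnah2 (NM_001081330, chromosome 11), a chain of the I1 inner-arm dynein, had levels of -0.38, -0.10, -0.57 and -0.53 after contusion, against 0.12, 0.59, 0.52 and 0.51 in control cord. Every injured cord was below every control, by 0.83 ± 0.14 (1.78-fold, adjusted p = 0.00204); a second of its 3 probes gave -0.76 and the third 0.19, which did not pass. Dnah10 (NM_019536, chromosome 5), the partner chain of Dnah2 in that dynein as known from Chlamydomonas, went the other way. Its levels were -0.68, -0.23, -0.47 and -0.23 after contusion, against -1.57, -1.52, -1.57 and -1.7 in control cord. The groups were far apart, and the rise was 1.19 ± 0.11 (2.28-fold, adjusted p = 0.000194), with 0.92 within slide 1 and 1.26 within slide 2. It rests on the only 1 of 3 Dnah10 probes that was bright enough to keep. Its promoter, printed above, holds 4 half-sites.

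Among the other inner-arm chains, Dnah7b fell by 0.64 ± 0.12 (adjusted p = 0.00402), Dnah7a by 0.49 ± 0.10 (adjusted p = 0.00667) and Dnah7c by 0.28 ± 0.07 (adjusted p = 0.0169). These 3 genes are near-identical copies on chromosome 1, so a probe may read more than its own gene and they are uncertain as separate results. The other probes of Dnah7a gave -0.37, -0.19 and -0.18, of which only the first passed. Dnah1 had -0.34, -0.49, -0.60 and -0.57 after contusion, against -0.43, 0.24, 0.19 and 0.03 in control cord. Control replicate 1 lay within the contusion range. The levels split by slide, with -0.34 to 0.24 on slide 1 and -0.60 to -0.43 on slide 2. The difference was -0.49 within slide 1 and -0.12 within slide 2. The pooled fall of 0.51 ± 0.15 (adjusted p = 0.0274) did not pass with the slide as a block (adjusted p = 0.0602), and the other probe of Dnah1 gave -0.14. Dnah7c likewise did not pass with that block (adjusted p = 0.0562). Dnah6 differed by -0.25 ± 0.11 (adjusted p = 0.119), and by -0.33 on the mean of its probes (adjusted p = 0.0138). Of 6 dynein intermediate and light chains tested, Dnal1 fell by 0.58 ± 0.07 (adjusted p = 0.000473), Dnaic1, an outer-arm chain, by 0.49 ± 0.06 (adjusted p = 0.00044), and its outer-arm partner Dnaic2 rose by 0.68 ± 0.11 (adjusted p = 0.00144).

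Radial spokes pass signals from the central pair to the dyneins, and of 7 spoke genes tested 1 rose and 1 fell. Rsph3a, a stalk protein gene (NM_025789, chromosome 17), had levels of 4.66, 4.60, 4.68 and 4.58 after contusion, against 4.21, 4.29, 4.35 and 4.21 in control cord. The values of each group were tight and apart, and the rise was 0.36 ± 0.06 (1.29-fold, adjusted p = 0.00226), with 0.36 to 0.40 over its 4 probes. Mice carry a close copy, Rsph3b, so those probes may read both genes. Rsph14, an armadillo-repeat gene, had -3.85, -3.32, -4.44 and -3.83 after contusion, against -3.22, -3.11, -3.34 and -3.17 in control cord. The groups overlapped at contusion replicate 2, and the fall of 0.65 ± 0.21 (adjusted p = 0.0369) was not repeated on its second probe (0.20) and held under 7 of the 17 alternatives. The spoke-head genes Rsph1, Rsph4a and Rsph9 differed by -0.11 ± 0.08, -0.22 ± 0.11 and 0.07 ± 0.07, and Rsph6a, known from sperm, by -0.06 ± 0.11. None of these 4 passed (adjusted p = 0.163 to 0.698), though Rsph4a did without contusion replicate 2 (difference -0.31, adjusted p = 0.0295). Cfap206, which helps anchor a spoke, differed by -0.17 ± 0.10 (adjusted p = 0.215).

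Tektins form filaments inside the doublets. Tekt5, best known from the sperm tail (NM_001291001, chromosome 16), had the largest fall of the 58 genes. Its levels were 2.56, 2.44, 2.49 and 2.29 after contusion, against 3.92, 3.89, 3.82 and 3.94 in control cord. No injured cord came within 1 log2 unit of a control, and the difference was -1.45 ± 0.07 (2.73-fold lower, adjusted p = 8e-05), with -1.19 on its other probe. Tekt1, Tekt2 and Tekt4 differed by 0.17 ± 0.12, 0.15 ± 0.07 and -0.12 ± 0.09, and none passed (adjusted p = 0.151 to 0.314). Of 12 testis and sperm genes tested, 3 fell and 0 rose by limma (1 higher at an unadjusted p under 0.05), with a median difference of -0.02. Those that fell were Odf1 by 0.77 ± 0.20 (adjusted p = 0.0154), Acr by 0.29 ± 0.09 (adjusted p = 0.0281) and Odf2 by 0.24 ± 0.08 (adjusted p = 0.0483). None of these 3 passed with the slide as a block (adjusted p = 0.0606 for Odf1, 0.0944 for Acr and 0.158 for Odf2). All 6 neuronal markers fell as well (5 with the slide as a block), with a summed level of 9.32 to 9.54 after contusion, against 9.94 to 10.20 in control cord; their part in the Tekt5 value was not tested.

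The other proteins of the doublet wall split. Cfap52 and Cfap45, which sit inside the doublet, rose by 0.37 ± 0.10 (adjusted p = 0.0196) and 0.30 ± 0.09 (adjusted p = 0.0314). Cfap161, another inner protein, had -0.62, -0.34, -0.60 and -0.73 after contusion, against -0.08, -0.01, 0.13 and -0.05 in control cord. All injured cords were below all controls, by 0.57 ± 0.10 (1.49-fold, adjusted p = 0.00211). Of the 7 doublet genes tested 2 rose and 2 fell. The rise of Cfap45 held under 9 of the 17 alternatives, and that of Cfap52 under 16, the exception being without contusion replicate 2 (adjusted p = 0.0515). Of 18 further inner-wall and axonemal genes, 6 rose and 5 fell. Mns1, a filament protein of the inner wall, rose by 1.58 ± 0.15 (adjusted p = 0.000208), Spaca9 by 0.90 ± 0.15 (adjusted p = 0.00189) and Ropn1l by 0.86 ± 0.07 (adjusted p = 0.000158). Tppp3 fell by 0.54 ± 0.12 (adjusted p = 0.0082), Efhc2 by 0.47 ± 0.10 (adjusted p = 0.00608) and Dydc2 by 0.39 ± 0.09 (adjusted p = 0.00891).

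The central apparatus steers the beat, and of its 5 Cfap genes 4 fell, and the range of differences over the 5 was -0.43 to -0.26. Cfap74 fell by 0.43 ± 0.11 (adjusted p = 0.0142) and Cfap46 by 0.39 ± 0.11 (adjusted p = 0.0205), both parts of projections of the central pair. With the slide as a block neither passed (adjusted p = 0.0537 for Cfap74 and 0.0668 for Cfap46). Cfap54, which also fell, did not pass with it (adjusted p = 0.126), while Cfap69 did (adjusted p = 0.0239). Of 12 other central apparatus genes, 3 rose and 4 fell. Hydin, which builds a projection of the central pair, rose by 0.51 ± 0.14 (adjusted p = 0.0193), Spef2 by 0.47 ± 0.12 (adjusted p = 0.0152) and Stk36 by 0.37 ± 0.07 (adjusted p = 0.00441). Ak8 fell by 0.70 ± 0.10 (adjusted p = 0.001), Spag6 by 0.67 ± 0.13 (adjusted p = 0.00465) and Ak7 by 0.59 ± 0.16 (adjusted p = 0.0212). Hydin (adjusted p = 0.0726) and Ak7 (adjusted p = 0.0685) did not pass with that block either.

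Of 8 tethers, regulators and assembly factors of the dyneins, 4 fell and 1 rose. Cfap43, which with Cfap44 forms the tether of the I1 dynein head, had -2.21, -1.95, -2.49 and -2.36 after contusion, against -2.01, -1.58, -1.48 and -1.80 in control cord. The groups met at contusion replicate 2 and control replicate 1, and the fall was 0.53 ± 0.15 (adjusted p = 0.0222; adjusted p = 0.0857 with the slide as a block). Its second probe fell by 0.83. Cfap44 (adjusted p = 0.0689) and Cfap70 (adjusted p = 0.0785) also fell but did not pass with that block, while Cfap57 did (adjusted p = 0.048). The second probe of Cfap44 gave -0.03 and did not pass, nor did the mean of its probes (-0.19, adjusted p = 0.0898). Cfap300, needed to assemble dynein arms, rose by 0.38 ± 0.11 (adjusted p = 0.0214; adjusted p = 0.0542 without contusion replicate 1). Of 10 other assembly and docking factors 4 rose and 3 fell, led by Dnaaf3 (0.54 ± 0.14, adjusted p = 0.0148), Dnaaf5 (0.47 ± 0.06, adjusted p = 0.000696) and Dnaaf2 (0.37 ± 0.12, adjusted p = 0.041). The 3 that fell were Dnaaf6 by 0.92 ± 0.24 (adjusted p = 0.0157), Spag1 by 0.53 ± 0.07 (adjusted p = 0.000679) and Zmynd10 by 0.24 ± 0.08 (adjusted p = 0.0456). With the slide as a block 4 of this list passed in place of 7, and Dnaaf3 (adjusted p = 0.0568) and Zmynd10 (adjusted p = 0.138) did not.

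The nexin-dynein regulatory complex, which links neighbouring doublets, and the axonemal rulers had 7 of 13 genes that fell and 1 that rose. Tcte1 fell by 0.99 ± 0.08 (adjusted p = 0.000143), Iqca by 0.96 ± 0.17 (adjusted p = 0.00299) and Ccdc65 by 0.64 ± 0.14 (adjusted p = 0.00668). Iqcg, a calmodulin-binding part of the same complex, rose by 0.75 ± 0.12 (adjusted p = 0.00178). Intraflagellar transport and the Bardet-Biedl complexes serve primary as well as motile cilia. Of their 36 genes 15 fell (41.7%, against 25.4% of all mRNA genes) and 1 rose (2.78%, against 25.8%), with a median of -0.17. The share that changed in either direction was 44.4%, against 51.2%, and 11 of the 36 passed with the slide as a block. Kifap3 fell by 0.62 ± 0.10 (adjusted p = 0.00151), Bbs2 by 0.54 ± 0.08 (adjusted p = 0.00152) and Kif3a by 0.53 ± 0.10 (adjusted p = 0.00298), and Ift52 rose by 0.20 ± 0.06 (adjusted p = 0.0305). Kifap3 and Kif3a are parts of the kinesin that carries cargo into cilia, and that motor also works in axons.

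**Figure D3:**
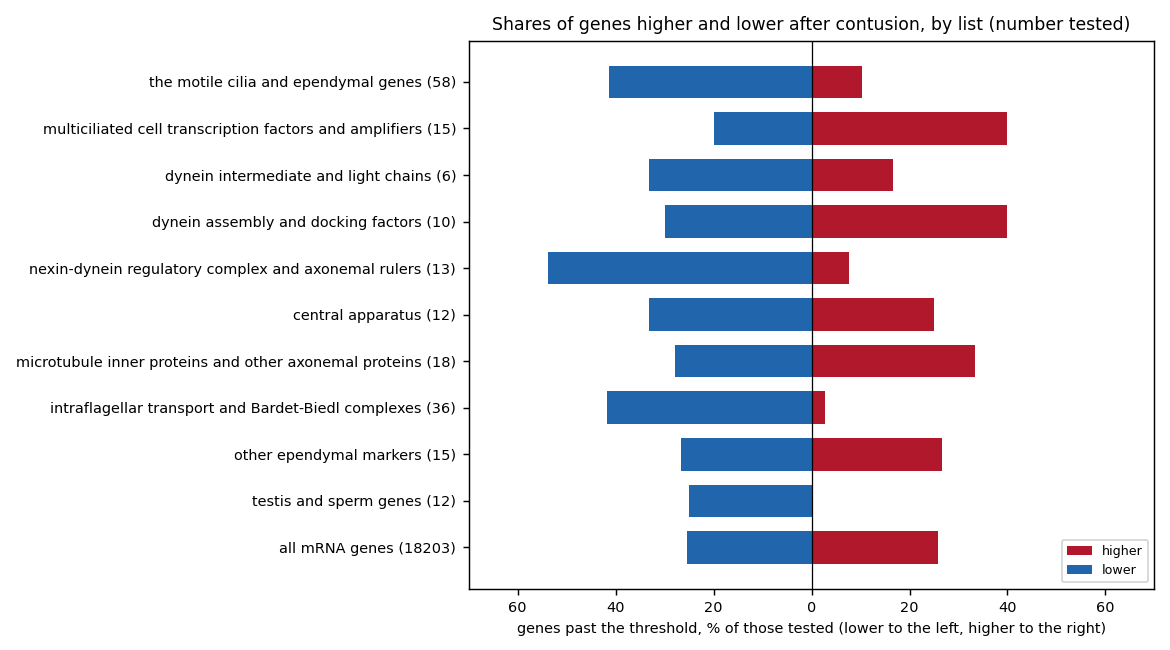
Shares of the genes tested that rose (red, to the right) and fell (blue, to the left) after contusion, in percent, for the motile cilia and ependymal genes, for 9 related lists and for all mRNA genes, with the number tested in brackets. The motile cilia and ependymal genes lean to the left (41.4% lower and 10.3% higher), as do the transport and regulatory complex lists, while all mRNA genes split evenly (25.4% lower and 25.8% higher).

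The other Cfap genes, less tied to 1 structure, gave 5 falls among 9 tested and 0 rises by limma, 0 also at an unadjusted p under 0.05. Cfap65, needed for the sperm tail, had -2.35, -2.0, -2.5 and -2.38 after contusion, against -1.73, -1.38, -1.51 and -1.42 in control cord. The fall of 0.80 ± 0.13 (1.74-fold, adjusted p = 0.00152) kept the groups apart, and its second probe fell by 0.98. Cfap20dc, whose promoter with a paired X-box is printed above, had -0.92, -0.79, -0.91 and -1.08 after contusion, against -0.33, -0.21, -0.46 and -0.36 in control cord. It fell by 0.59 ± 0.08 (1.5-fold, adjusted p = 0.000991) and gave -0.58 within slide 1 and -0.60 within slide 2, and all 4 of its probes fell. Cfap298, a dynein assembly factor whose promoter holds the same site, did not pass, with 4.15, 4.21, 4.34 and 4.09 after contusion, against 4.02, 4.22, 4.18 and 4.34 in control cord (difference 0.01 ± 0.09, adjusted p = 0.948). Cfap299 fell by 0.50 ± 0.15 (adjusted p = 0.0288, or adjusted p = 0.0894 with the slide as a block), and Cfap97 by 0.41 ± 0.07 (adjusted p = 0.00223). The levels of Cfap299 split by slide, with -1.08 to -0.42 on slide 1 and -1.36 to -1.11 on slide 2. The 7 Cfap genes of any role that fell and whose differences are not given singly had differences of -0.37 to -0.19.

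**Figure D4:**
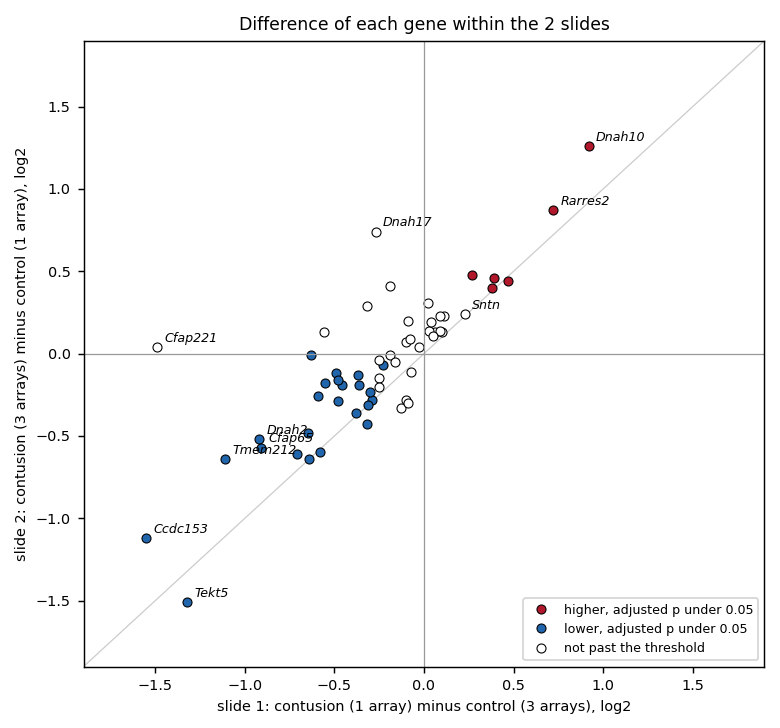
Difference of each of the 58 genes within slide 1 (horizontal axis, 1 contusion against 3 control arrays) and within slide 2 (vertical axis, 3 contusion arrays against 1 control array), both log2, with the grey diagonal marking equal values. The genes that fell (blue) and rose (red), chosen by their difference over these same arrays, stay on their side of 0 in both slides. Most blue points lie above the diagonal, that is, nearer 0 within slide 2.

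Other lists put the ependymal genes in context. All 9 ependymal markers were well above background on all 8 arrays, and 2 fell and 1 rose. Their summed level was 5.49 to 5.68 after contusion, against 5.32 to 5.56 in control cord. That sum is weighted to bright genes such as Foxj1 (mean 4.14 after contusion, 4.13 in control cord) and Rarres2 (3.86 against 3.04). Ccdc153 (0.23 against 1.63) adds little to it, so the sum does not show whether ependymal markers were kept. Of 15 genes on a second ependymal list, 4 rose and 4 fell. That list shares Dynlrb2, Mia and Fam216b with the 9 markers, and some of its genes also serve glia or progenitors. Vim, the intermediate filament vimentin of ependymal cells and reactive glia, had 8.54, 8.63, 8.57 and 8.54 after contusion, against 6.91, 6.71, 7.15 and 5.54 in control cord, a rise of 1.99 ± 0.31 (adjusted p = 0.00148). Sox9 rose by 0.53 ± 0.07 (adjusted p = 0.000582) and Calml4, whose groups overlapped, by 0.49 ± 0.14 (adjusted p = 0.0275; adjusted p = 0.0603 with the slide as a block). Tctex1d4 fell by 0.81 ± 0.18 (adjusted p = 0.00743), Nnat by 0.67 ± 0.17 (adjusted p = 0.0152) and Ak7, as above, by 0.59. In the fit with the slide as a block 5 of the 15 passed in place of 8. Macrophage and microglia markers rose in 7 of 7 (summed level 7.87 to 8.18 after contusion, against 5.80 to 6.89 in control cord). Astrocyte markers split 3 up and 3 down of 7 (5 in all with the slide as a block), and 1 of 6 oligodendrocyte markers fell. Of 7 choroid plexus markers, Aqp1 rose and Kl and Clic6 fell, neither of which passed with the slide as a block (adjusted p = 0.0547 for Kl and 0.0642 for Clic6). Ttr, the defining gene of that epithelium, was at -3.15 to -2.16 after contusion, against -2.51 to -2.22 in control cord. The 6 muscle markers did not pass but were highest in contusion replicates 1 and 2 (summed level 3.48 to 7.27 after contusion, against 3.18 to 4.39 in control cord). The part of any of these cell types in the ciliary values was not tested.

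The arrays also carry circular RNAs, closed loops made by back-splicing of a gene's exons. Their names give positions without a build; 97.7% of those tested lay inside a protein-coding gene of GRCm38.p6, against 35.9% after a shift of 1000000 bases, so they were placed on that build. Of those inside the genes described here, 3 lay on the opposite strand and were set aside, and 64 in 14 genes remained, of which 35 are from Dnah9. For 54 of the 64 the strand matched that of the gene, and for the other 10, 9 from Cfap54 and 1 from Foxj1, the strand of the gene was not given in the table used. Of the 64, 9 fell (14.1%, against 25.7% of all 35615 circular RNAs tested), 5 rose (7.81%, against 16.2%) and 21.9% changed in either direction, against 42.0%. Many of the 64 were dim, and their brightness was not compared with that of all circular RNAs. The lowest difference, -2.11 for 1 from Zbbx, picked out for its value, had signal well above background on 0 contusion arrays and 4 control arrays. The single circular RNA of Tekt5, named after its value was seen, had -1.49, -1.30, -1.47 and -1.57 after contusion, against -0.03, -0.10, -0.12 and 0.08 in control cord. Its fall of 1.42 ± 0.08 (adjusted p = 8.22e-05) stood beside the 1.45 of the Tekt5 mRNA probe. Of 35 from Dnah9, 4 fell and 1 rose, and of the 9 inside Cfap54, whose strand was not checked, 2 fell and 2 rose.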

How the data were processed

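RNA of 8 spinal cords was hybridised to Agilent 1-colour (Cy3) arrays with probes for mRNAs, lncRNAs and circular RNAs. The spot values are intensities that Agilent Feature Extraction had background-subtracted and detrended within each array, per the file headers; the flags for background, saturation and outliers come from the same step. For the version of that program the headers give 12.0.3.1 and the submitters' processing notes 10.7; those notes also list limma. The authors' deposited table holds log2 values, with a Spearman correlation of 1 to each array's intensities, column medians of 5.3993 to 5.4 and an unstated between-array normalization; it served as an alternative. Of 172336 spots per array, 155279 were analysed here.

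Each array's processed intensities were divided by their 75th percentile, and the log2 values were fitted with limma 3.58.1 (lmFit and eBayes, R 4.3.3), contusion against control, with Benjamini-Hochberg adjustment over 89145 features. A gene was read from its brightest probe, by mean over the 8 arrays, among probes above background on at least 4 arrays. RefSeq names (GRCm38.p6) matched 99.0% of mRNA accessions. The fit was first tested on simulated data. Alternatives changed the background correction, normalization, filter, probe rule, blocks, variance model and samples. Named were the 6 single genes, up to 8 rising and 8 falling per family by size, all spoke and tektin genes, and up to 3 each way per related list. Some genes outside that rule are named as well, among them Cfap44, Cfap54, Cfap57, Cfap69, Cfap70, Cfap410, Cfap298 and the dyneins that did not pass. The members and lists were chosen with earlier results of these data known.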

Additional observations from a re-analysis of the deposited data

Results flagged for a closer look

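In each group of 4 arrays the highest and the lowest level of each of the 58 genes was compared with its nearest neighbour by Dixon's test. Chance marks about 1 in 20 groups, and 10 of 116 were marked. Contusion replicate 2 stood above the other injured cords for Ccdc153 (0.46), Cfap57 (-0.79), Rarres2 (4.07) and Rsph1 (0.65). Of these, Ccdc153 and Cfap57 fell and Rarres2 rose after contusion, so the outlying array lay nearer the controls for the first pair and farther from them for Rarres2. Control replicate 1, the only control on slide 2, stood below the other controls for Cfap20 (4.6), Cfap73 (-5.14, a dim gene) and Dnah2 (0.12), and above them for Dnah9 (1.16). Contusion replicate 1, the only injured cord on slide 1, stood below the others for Sntn (0.52), and contusion replicate 4 stood above them for Rsph9 (2.56). The part of slide, described day or mouse in these values was not tested.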

How the results depend on the processing

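Over 17 alternative analyses no gene that had risen or fallen changed direction, and 16 of 30 kept their call in all of them. With the slide as a block 13 genes fell, against 24 without it, and 19 of the 30 calls held. Within slide 2 the median difference was -0.06, against 0.04 over all mRNA genes. With normexp background correction the median difference over all 8 arrays was -0.09. Without 1 sample at a time, 15 to 23 genes fell (15 without control replicate 3), 4 to 7 rose, the median ran from -0.25 to -0.11, and 21 to 28 of the 30 calls held. Over all mRNA genes the same refits gave 3771 to 5053 that fell and 4075 to 4562 that rose. The main analysis gave 4623 and 4691. With 7 arrays the power is lower by construction, and the cause of other losses was not tested. Of the 58 genes, 6 without a call in the main analysis passed under at least 1 alternative (Cfap53, Cfap77, Dnah6, Dnah9, Rsph4a and Sntn).

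Replicate numbers did not pair the samples: deviations of same-numbered arrays correlated at -0.302, -0.006, 0 and -0.046. With a replicate block 19 genes fell and 5 rose. Dim genes such as Cfap73 and Cfap221, with signal on 6 and 7 arrays, are limited by background.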
